A study of Homo sapiens with 6 samples.

Results

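The respiratory chain and the ATP synthase of the mitochondrial inner membrane are described here by the mRNA levels of 74 genes, out of 19775 genes on the Affymetrix U133 Plus 2.0 array. A gene was taken as a member when its probe set carried exactly 1 symbol of the NDUFA, NDUFB, NDUFC, NDUFS, NDUFV, SDH, UQCR, COX5 to COX8 or ATP5 families. The rule used names and no measured value. It gave 32 genes of complex I, 3 of complex II, 6 of complex III, 14 of complex IV and 19 of the ATP synthase, and the last count includes ATP5IF1, an inhibitor of the enzyme, and ATP5MC2P1, a pseudogene. Subunits with other symbol forms, such as COX4I1 and CYC1, fall outside the rule and are given below as neighbours. The cells were MCF-10A, a nontransformed immortalized line of human breast epithelium grown in mammary epithelial medium. Total RNA from 3 control samples and 3 samples of cells given an MBD2 lentivirus, packaged in HEK293 cells, was hybridized to 1 array each, to ask how more MBD2, a protein that binds methylated DNA, alters expression. The labels call the second group an MBD2 transfection, the controls non-infected and the replicates technical, whereas the study's methods speak of an empty control virus and of biological replicates. No source says whether separate cultures were used, so the p-values below measure only the spread between these arrays, and the promoter that drives MBD2 in the virus is not given in the sources used here.

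The chain passes electrons from NADH through complex I, and from succinate through complex II, to ubiquinone, then through complex III and cytochrome c to complex IV, which reduces oxygen. Complexes I, III and IV pump protons, and the ATP synthase uses the gradient to make ATP. Almost all subunits are encoded in the nucleus and must be made in step with the few encoded in mitochondrial DNA. Most tissues express nearly all of them, and several small subunits of complex IV have further isoforms of muscle or testis.

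The transcript of MBD2 was higher on every MBD2 array than on every control array, at 9.21 ± 0.41 (log2, SD, n = 3) in the controls and 12.13 ± 0.39 (SD, n = 3) with the virus, which differ by 2.92 log2 units (limma adjusted p = 0.0119, and 0.076, 0.0838 and 0.0664 on leaving out the first control, the second control or MBD2 array 3). The arrays within a group were not alike. A distance of over 2-fold was found for 5 genes between control arrays 1 and 2 but for 1572 between 1 and 3. Among the MBD2 arrays it was found for 95 genes between arrays 2 and 3 and for 2877 between 1 and 2. Hybridization controls, non-human transcripts added to each sample, averaged 9.94 and 10.01 on MBD2 arrays 2 and 3. They averaged 10.96 to 11.33 on the other 4 arrays. The 6 measured markers of basal mammary epithelium averaged 11.8 to 12.8 on the arrays. Of 5 leukocyte markers, CD14 was called lower (log2 fold change -3.07), at 10.25 ± 0.48 (SD, n = 3) in the controls and 7.18 ± 0.95 (SD, n = 3) with the virus. The defining marker PTPRC lay at 3.91 ± 0.11 (SD, n = 3) and 3.73 ± 0.20 (SD, n = 3), near the level of probe sets for an unadded transcript (2.93 to 3.67). LYZ had control and MBD2 means of 4.33 and 4.27, CD3E 5.43 and 5.42, and CD53 5.55 and 5.67, also above that range.

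Of the 74 members, 1 fell and 0 rose in MCF-10A cells overexpressing MBD2. The gene that fell was UQCR11, which encodes a small subunit of complex III. A gene was called at a fold change of at least 1.5 and an adjusted p under 0.05, for which the p-values of limma were adjusted across the 19775 genes by the method of Benjamini and Hochberg. Over all genes 1.5% were called lower and 1.25% higher, 2.75% in all, so the member called, 1.35% of the members, does not set them apart. The median log2 fold change of the members was -0.18, against -0.02 over all genes and 0.04 over the brightest 25% of genes, to which 61 of the members belong. The difference lay below 0 for 52 members and above 0 for 22, where 53% of all genes lay below 0. It was smaller than 0.5 log2 units in 59 members. At an unadjusted p under 0.05, 12 members were lower (16.2%) and 0 higher, against 9.59% and 8.69% of all genes. In 16 members, 21.6%, every MBD2 array lay below every control array, and in 0 members above, against 14.6% and 10.4% of all genes. Under the fold rule of the study's methods, applied to each array without a test, 2 members were lower and 0 higher, UQCR11 and NDUFA13, against 1.81% and 3.47% of all genes. Less mRNA per cell and fewer cells that express a gene cannot be told apart in such bulk samples.

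**Figure D1:**
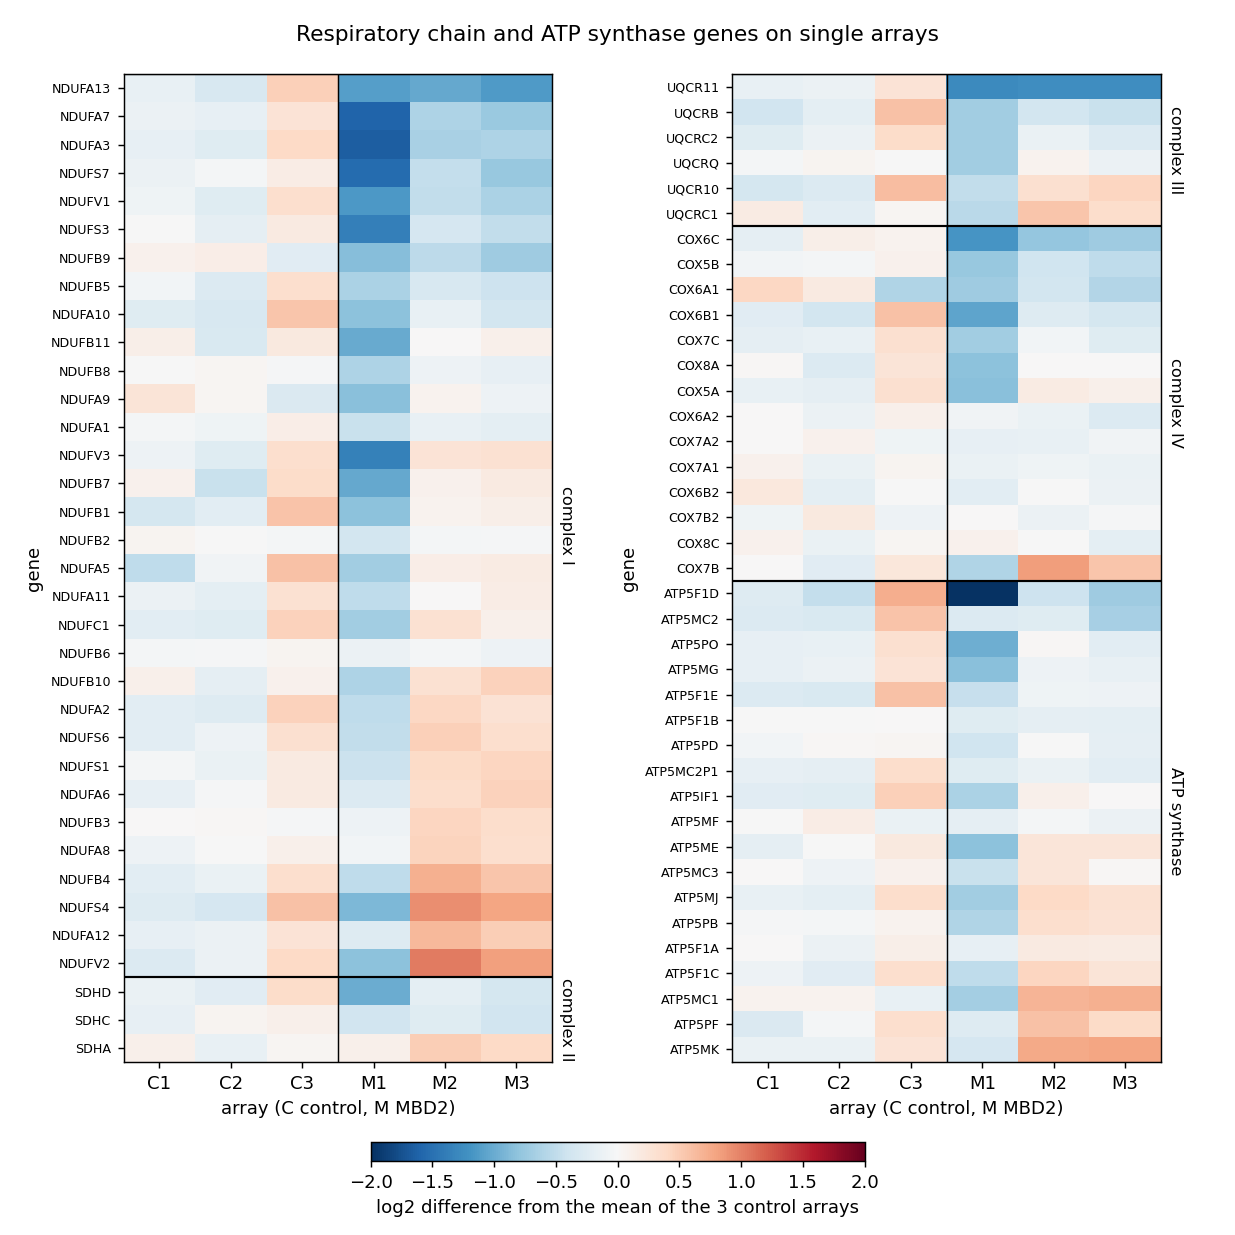
Log2 difference of each member (rows, ordered within each complex by its fold change) from the mean of the 3 control arrays, with control arrays as columns C1 to C3 and MBD2 arrays as M1 to M3, and with blue below and red above that mean. M1 is blue in almost every row, M2 and M3 are blue at the top of most blocks and red at the bottom, and C3 is red in most rows.

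UQCR11 encodes a small subunit that sits at the edge of complex III. Its log2 value was 11.66, 11.70 and 12.08 on control arrays 1, 2 and 3 and 10.54, 10.57 and 10.56 on MBD2 arrays 1, 2 and 3. The MBD2 arrays were nearly equal, 0.0274 log2 units from lowest to highest, and the groups did not overlap. The means of 11.81 ± 0.23 (SD, n = 3) and 10.56 ± 0.01 (SD, n = 3) differ 2.38-fold (log2 fold change -1.25, with a standard error, SE, of 0.14, limma adjusted p = 0.0163). On MBD2 array 1 alone UQCR11 lay 1.27 log2 units below the control mean, and with the hybridization level as a block, which compares that array with the controls, its adjusted p was 0.0567. Leaving out the first control, the second control, MBD2 array 2 or MBD2 array 3 raised the adjusted p to 0.076, 0.0887, 0.0731 and 0.0953, and the log2 fold change stayed between -1.33 and -1.12. A second and dimmer probe set of UQCR11 had 7.75, 7.56 and 7.30 on the control arrays and 7.03, 7.45 and 7.03 on the MBD2 arrays. There the groups overlapped, with a log2 fold change of -0.37 (adjusted p = 0.359 when only probe sets not marked as sharing sequence with other transcripts were used), and the mean of both gave -0.81.

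The stretch before the start of UQCR11 is shown with that of NDUFA13, the member next to it in size of decrease, and that of ATP5MK, the member with the most positive difference, so that the ends of the range can be compared. The sequences are from RefSeq on GRCh38.p14, 150 bases upstream of the annotated transcript start, 5′ to 3′ on the gene's strand. Capitals mark matches on either strand to GCGC, any base and TGCGC (the core of the NRF1 site), CCGGAAG (a site of ETS factors such as GABP) and ATGGCGG (the core of the YY1 site).
UQCR11 (chr19:1605463-1605612, minus strand): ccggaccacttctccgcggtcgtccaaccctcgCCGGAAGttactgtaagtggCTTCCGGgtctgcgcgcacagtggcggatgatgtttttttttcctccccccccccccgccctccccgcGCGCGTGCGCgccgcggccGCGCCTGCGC
NDUFA13 (chr19:19516075-19516224, plus strand): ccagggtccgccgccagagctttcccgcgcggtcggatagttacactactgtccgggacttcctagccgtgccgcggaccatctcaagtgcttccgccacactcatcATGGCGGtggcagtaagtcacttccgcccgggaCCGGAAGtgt
ATP5MK (chr10:103396476-103396625, minus strand): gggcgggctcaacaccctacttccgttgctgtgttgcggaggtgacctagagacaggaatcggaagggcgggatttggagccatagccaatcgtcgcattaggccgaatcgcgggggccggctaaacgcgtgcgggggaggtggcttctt
The UQCR11 stretch holds 2 NRF1 and 2 ETS matches, that of NDUFA13 holds 1 ETS and 1 YY1 match, and that of ATP5MK holds 0 of them. The 150 bases of NDUFA7 (log2 fold change -0.99), not printed here, also hold 0 of them. In the longer stretch of 250 bases ATP5MK has 2 ETS matches, as many as UQCR11, so the ETS letters do not separate the ends of the range. The NRF1 letters do not separate them either, since in the longer stretch NDUFA3 (-0.97) has 2 matches and SDHA (0.33) has 4. NRF1, GABP and YY1 are known regulators of respiratory chain genes. In the 250 bases upstream, the NRF1 letters were found in 14 of the 63 members with a sequence (22.2%) and in 7.82% of 15382 genes tested, and the ETS letters in 23.8% and 12% (15 members). The YY1 letters were found in 6.35% of the members, which are 4 genes, and in 3.26% of the genes, and SP1 sites (GGGCGG) in 57.1% and 56.3%. The median log2 fold change was -0.07 for members with the NRF1 letters and -0.17 for those without, and -0.27 and -0.11 for the ETS letters. For the YY1 letters it was -0.75 with, over the 4 genes NDUFA13, NDUFA7, SDHD and ATP5PF, and -0.13 without, and for the SP1 letters -0.18 and -0.12. For the CCAAT box, found in 33.3% of the members and 34.1% of the genes, it was -0.16 and -0.13. Members with the letters thus had the lower median for ETS, YY1, SP1 and CCAAT and the higher one for NRF1, with no test made.

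Complex I holds the largest number of members, and 0 of its 32 genes passed the test. Its median log2 fold change was -0.18, 21 differences (65.6%) lay below 0, as did 53% of all genes, and 11 genes (34.4%) had MBD2 arrays all below the controls, against 14.6% of all genes. NDUFA13, an accessory subunit also known as GRIM-19, came nearest to UQCR11. Its log2 value was 11.26, 11.10 and 11.89 on control arrays 1, 2 and 3 and 10.31, 10.40 and 10.28 on MBD2 arrays 1, 2 and 3. All MBD2 arrays lay below the controls, and they differed little among themselves, as for UQCR11. The log2 fold change was -1.09 (SE 0.22, limma adjusted p = 0.0682), and leaving out control array 3, which stood highest, gave -0.85 with an adjusted p of 0.0353. Without MBD2 array 1 the adjusted p was 0.0439, and without any other single array it was 0.142 to 0.263.

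NDUFA7 and NDUFA3, accessory subunits, and NDUFS7 and NDUFS3, subunits of the arm that carries electrons to ubiquinone, had their lowest level on MBD2 array 1. NDUFA7 had 8.90, 8.86 and 9.30 on control arrays 1, 2 and 3 and 7.42, 8.39 and 8.28 on MBD2 arrays 1, 2 and 3 (log2 fold change -0.99, limma adjusted p = 0.155). Its other probe set differed by -0.16. NDUFA3 had 10.11, 10.03 and 10.68 against 8.62, 9.63 and 9.65 (-0.97, adjusted p = 0.21). NDUFS7 had 8.21, 8.29 and 8.48 against 6.78, 7.85 and 7.57 (-0.93, adjusted p = 0.169), and its other probe set differed by -0.05. In these genes the groups did not overlap, but the single MBD2 array 1 made up much of the difference. Without it the log2 fold changes were -0.68 for NDUFA7, -0.63 for NDUFA3 and -0.62 for NDUFS7. NDUFV1, which binds NADH, had a log2 fold change of -0.76 (SE 0.23, adjusted p = 0.173), NDUFS3 had -0.73 (0.29, adjusted p = 0.265) and NDUFB9, an accessory subunit, -0.69 (0.15, adjusted p = 0.0808).

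At the other end stood NDUFV2, an iron-sulfur partner of NDUFV1, with 7.87, 8.01 and 8.53 on control arrays 1, 2 and 3 and 7.32, 9.17 and 8.95 on MBD2 arrays 1, 2 and 3. Its MBD2 arrays lay on both sides of the controls, so that the log2 fold change of 0.35 had an SE of 0.51 (limma adjusted p = 0.775). NDUFS4, an accessory subunit near NDUFV2, had the same shape, with 6.49, 6.41 and 7.34 on the control arrays and 5.84, 7.68 and 7.54 on the MBD2 arrays (0.28, SE 0.55, adjusted p = 0.838). NDUFA12, an accessory subunit, had 0.30 (SE 0.27, adjusted p = 0.614). NDUFV1 and NDUFV2 form the entry point for electrons together, and their differences had opposite signs.

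Of the 3 measured genes of complex II, 0 passed the test. SDHA, the flavoprotein that oxidizes succinate, had a log2 fold change of 0.33 (SE 0.14, limma adjusted p = 0.297), with 10.45, 10.19 and 10.37 on control arrays 1, 2 and 3 and 10.44, 10.83 and 10.74 on MBD2 arrays 1, 2 and 3. MBD2 arrays 2 and 3 lay above every control array, and array 1 among them. The membrane anchors SDHC and SDHD had -0.33 (SE 0.12, adjusted p = 0.214) and -0.51 (0.26, adjusted p = 0.367). The probe sets of SDHC disagreed, since its 6 others ran from -0.67 to 0.31.

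In complex III, UQCR11 stood apart on the kept probe sets from the other 5 members, which had log2 fold changes between -0.50 and 0.12. UQCRB, which helps to bind ubiquinone, had -0.50 (SE 0.27, limma adjusted p = 0.391). Its dimmer probe sets had -1.11, -0.39 and 0.13, and at -1.11 the groups did not overlap. The second probe set of UQCR11 had -0.37, so the order of these genes depended on the probe set. The core proteins UQCRC1 and UQCRC2 had 0.12 (SE 0.31, adjusted p = 0.874) and -0.37 (0.23, adjusted p = 0.454). UQCRQ had -0.25 and UQCR10 0.09, both small subunits. CYC1, the cytochrome c1 of the same complex and outside the symbol rule, had 12.16, 12.04 and 12.08 on control arrays 1, 2 and 3 and 10.67, 11.63 and 11.34 on MBD2 arrays 1, 2 and 3 (-0.88, SE 0.25, adjusted p = 0.147). Its groups did not overlap.

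**Figure D2:**
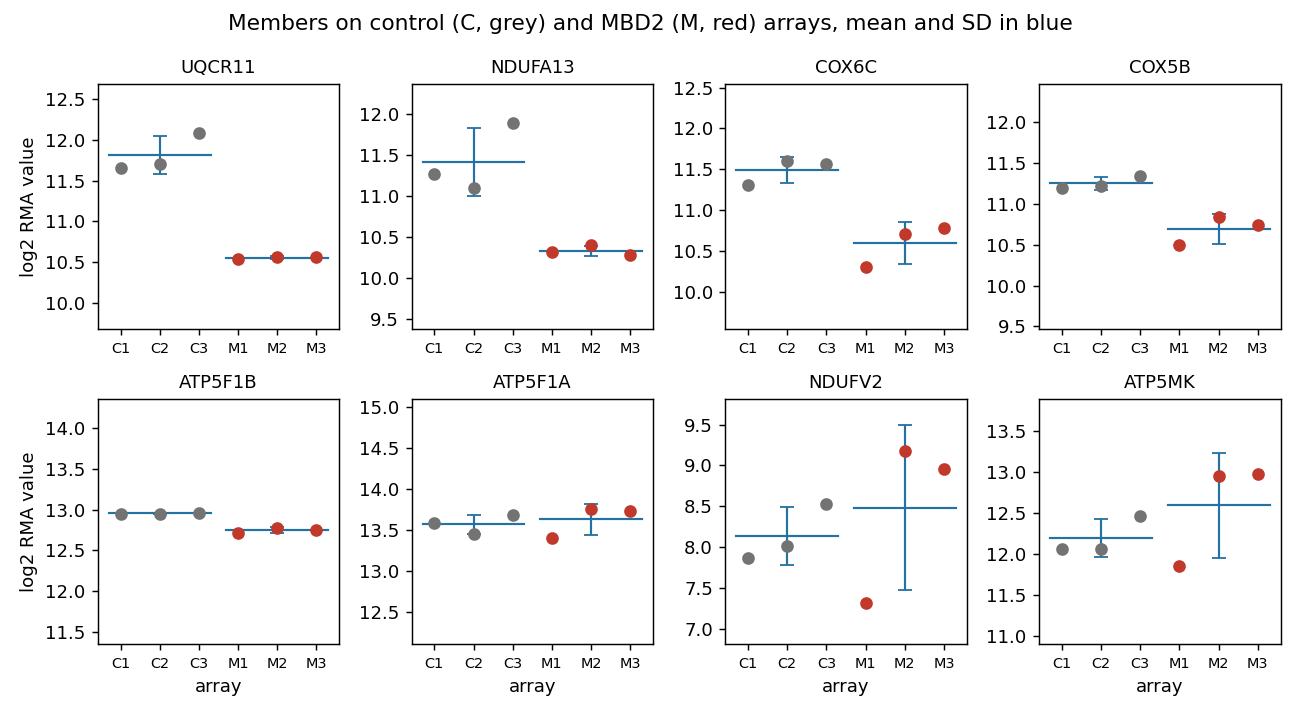
Log2 RMA values of 8 members (grey points C1 to C3 for control arrays, red points M1 to M3 for MBD2 arrays), with the mean and SD of each group in blue and axes that all span 3 log2 units. The MBD2 arrays of UQCR11 and NDUFA13 lie together below the controls, and those of NDUFV2 and ATP5MK lie on both sides of them, with M1 the lowest.

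Complex IV had 13 of its 14 differences below 0, where 53% of all genes lay below 0. Its median log2 fold change was -0.17, and 0 genes were called. The differences below 0 include those of the muscle and testis isoforms given below, which were only -0.16 to -0.04. COX6C, a small subunit of the membrane part, had 11.31, 11.61 and 11.56 on control arrays 1, 2 and 3 and 10.31, 10.71 and 10.79 on MBD2 arrays 1, 2 and 3. Its groups were far apart for their spread, and its log2 fold change of -0.89 (SE 0.17) had an adjusted p of 0.0578 from limma, just past the threshold. COX5B, which faces the matrix, had a log2 fold change of -0.56 (SE 0.13, adjusted p = 0.0912), and its 3 other probe sets had -0.57 to -0.51. COX4I1, the main regulatory subunit, lies outside the symbol rule and had 13.40 ± 0.09 (SD, n = 3) and 12.86 ± 0.07 (SD, n = 3), with a log2 fold change of -0.54 and an adjusted p of 0.0576. Of the 14 members, COX7B had the only positive difference (0.26, SE 0.39, adjusted p = 0.772), and a dimmer probe set of it differed by -0.82. Other genes outside the symbol rule had differences of both signs. The log2 fold change was -0.37 for COX4I2, -0.04 for CYCS, 0.35 for NDUFAB1 and 0.52 for COX7A2L. Their adjusted p from limma were 0.312, 0.93, 0.753 and 0.351.

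Some subunits of complex IV have isoforms that differ between tissues, and their levels are given per group because levels of different probe sets cannot be ranked. The isoforms of muscle, COX6A2 and COX7A1, had 4.77 ± 0.11 and 5.49 ± 0.12 (SD, n = 3) on the control arrays and 4.62 ± 0.11 and 5.37 ± 0.03 (SD, n = 3) on the MBD2 arrays. Those known from testis, COX6B2, COX7B2 and COX8C, had control means of 5.71, 4.26 and 3.31 and MBD2 means of 5.60, 4.20 and 3.27. All 5 had log2 fold changes between -0.16 and -0.04, and their arrays overlapped between the groups. Of the widely expressed partners, COX6A1 had a log2 fold change of -0.56 (SE 0.28, limma adjusted p = 0.354), COX6B1 -0.55 (0.33, adjusted p = 0.438), COX8A -0.27 (0.27, adjusted p = 0.655) and COX7A2 -0.12 (0.10, adjusted p = 0.564).

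The ATP synthase had a median log2 fold change of -0.11 and 0 genes called. Of its 19 differences 12 lay below 0, as did 53% of all genes. The catalytic core differed little, given here for ATP5F1A and ATP5F1B, which were chosen after their values were seen. ATP5F1A (alpha) had 13.57 ± 0.12 (SD, n = 3) and 13.63 ± 0.19 (SD, n = 3), with a log2 fold change of 0.06 (SE 0.14, limma adjusted p = 0.865). ATP5F1B (beta) had 12.95, 12.95 and 12.96 on control arrays 1, 2 and 3 and 12.71, 12.78 and 12.75 on MBD2 arrays 1, 2 and 3. Its arrays agreed closely within each group and did not overlap between them, at a log2 fold change of -0.21 (SE 0.09, adjusted p = 0.3). ATP5F1D (delta), part of the rotating stalk, had -1.03 with an SE of 0.50 (adjusted p = 0.344), and -0.56 without MBD2 array 1, where it read 7.31.

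The ring of c subunits, through which protons pass, is encoded by ATP5MC1, ATP5MC2 and ATP5MC3, whose mature proteins are the same. Their log2 fold changes were 0.24 (SE 0.39), -0.39 (0.28) and -0.06 (0.19), with adjusted p of 0.803, 0.507 and 0.899 from limma. ATP5MC1 had 9.58, 9.58 and 9.35 on control arrays 1, 2 and 3 and 8.82, 10.18 and 10.22 on MBD2 arrays 1, 2 and 3. Thus it lay above the controls on MBD2 arrays 2 and 3 and below them on array 1. ATP5MK, a small membrane subunit, had 12.06, 12.06 and 12.46 on the control arrays and 11.85, 12.95 and 12.98 on the MBD2 arrays (0.40, SE 0.34, adjusted p = 0.581). ATP5PF and ATP5PO, of the peripheral stalk, had 0.24 and -0.39 (adjusted p = 0.69 and 0.534).

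**Figure D3:**
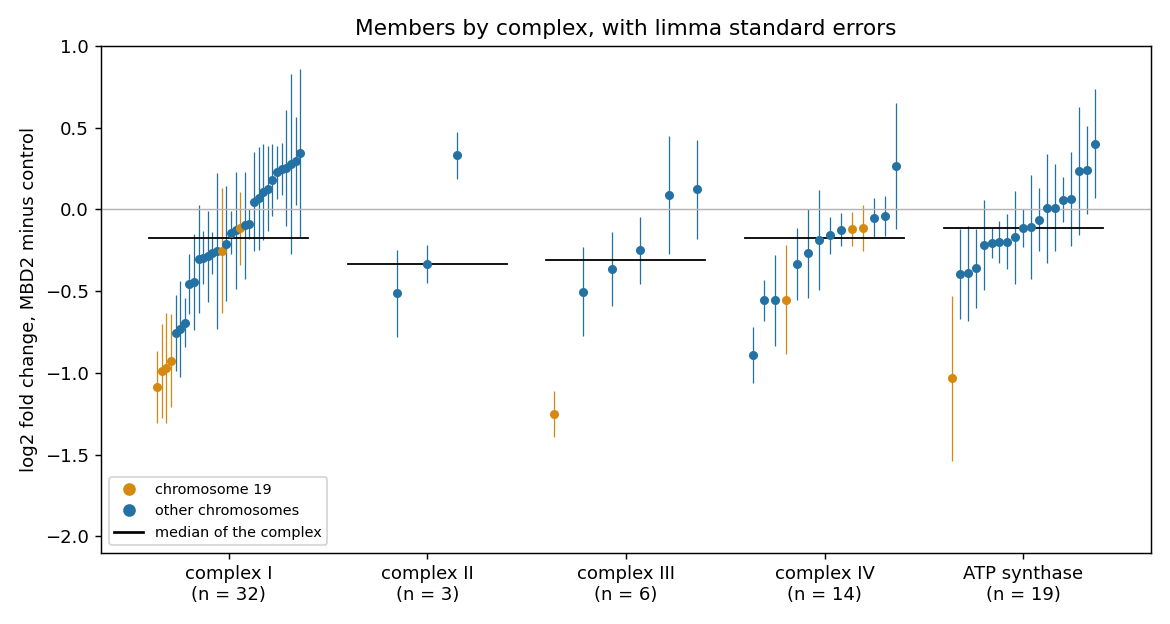
Log2 fold change (MBD2 minus control) of every member by complex, with limma standard errors as bars and the median of each complex as a black line. Members on chromosome 19 are orange and the others blue, and the lowest points of complex I, complex III and the ATP synthase are orange.

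Members on chromosome 19 had a lower median than the others, a grouping made after the values were seen. All 11 had a difference below 0, with a median log2 fold change of -0.93, against -0.14 for the 63 members on other chromosomes. Without MBD2 array 1, 9 of the 11 lay below 0, with a median of -0.56 (0.01 for the others), and NDUFB7 and NDUFA11 had 0.13 and 0.08. NDUFA11 also turned to 0.04 without control array 3. They are UQCR11, NDUFA13, ATP5F1D, NDUFA7, NDUFA3, NDUFS7, COX6B1, NDUFB7, NDUFA11, COX7A1 and COX6B2, and they include 6 of the 10 members with the lowest log2 fold changes. The 170 genes of chromosome 19 among the brightest 25% had a median of -0.27, against 0.05 for the 4774 such genes on other chromosomes. On MBD2 arrays 1, 2 and 3 the median of the 11 members lay -1.11, -0.41 and -0.62 from the control mean. The order of the groups was thus the same on each MBD2 array, since the members on other chromosomes lay at -0.60, 0.06 and 0.00. Among these others, the 3 members on chromosome 8 (COX6C, NDUFB9 and UQCRB), also grouped after the values were seen, had a median log2 fold change of -0.69. Their median lay at -0.85, -0.52 and -0.71 on MBD2 arrays 1, 2 and 3, so among the members low levels were not particular to chromosome 19. Over all levels, the 715 genes of chromosome 8 had a median of -0.05 and the 1320 genes of chromosome 19 -0.10.

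The members differed more between single arrays than between the groups. Relative to the control mean, the median of the 74 members was -0.11, -0.13 and 0.26 on control arrays 1, 2 and 3 and -0.63, -0.00 and -0.08 on MBD2 arrays 1, 2 and 3. MBD2 array 1 was the lowest of the 6 arrays for 65 members (87.8%), against 26% of all genes and 26.7% of the brightest 25%. Control array 3 lay above both other controls for 56 members (75.7%), against 45.5% of all genes. The members therefore had a median SD of 0.398 on the MBD2 arrays, where all genes had 0.187. The median standard error of their fold changes was 0.27 log2 units, close to that of the brightest 25% of genes (0.261).

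Genes for proteins of the mitochondrial and cytosolic ribosomes were also lowest on MBD2 array 1 and highest among the controls on control array 3. The median of 75 mitochondrial ribosomal protein genes was -0.64, 0.43 and 0.29 from the control mean on MBD2 arrays 1, 2 and 3, and 0.24 on control array 3. That of 59 cytosolic ribosomal protein genes was -0.76, 0.17 and 0.08, and 0.33 on control array 3. The 35 mitosis genes also lay low on MBD2 array 1 (-0.58) but were lowest on control array 3 (-1.05), where the members were high. The median of 6 fibroblast markers, of which 0 were called, stood at 1.83 on MBD2 array 1 and at -0.02 and -0.01 on arrays 2 and 3. Their mean level was 6.71 to 7.22 on the control arrays and 6.54 to 8.86 on the MBD2 arrays, and DCN, which encodes decorin, read 12.57 on MBD2 array 1 and 7.59 to 9.74 on the others. The markers did not move together. COL3A1 and LUM also read highest on MBD2 array 1, at 8.90 and 9.63, and LUM read 4.03 on MBD2 array 2. COL1A2 and PDGFRA read 5.92 and 5.55 on MBD2 array 1, against control means of 5.90 and 5.41. COL1A1 read 10.60, 10.61 and 9.75 on MBD2 arrays 1, 2 and 3, against a control mean of 9.04. The difference between the 3′ and 5′ control probe sets of GAPDH, a sign of RNA degradation, was 1.84 on MBD2 array 1, 1.83 to 2.52 on the control arrays and 1.49 and 1.52 on MBD2 arrays 2 and 3. The part of these in the members' levels was not tested.

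**Figure D4:**
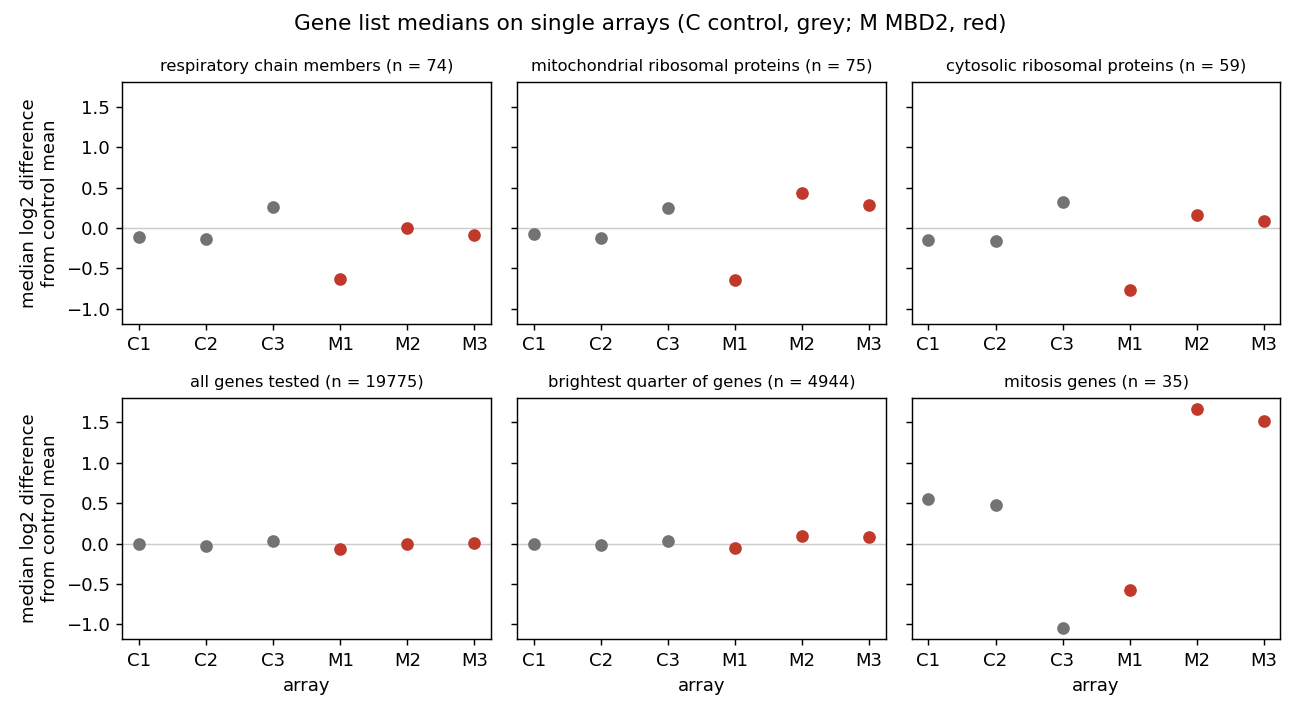
For the members and 5 other gene sets, the median log2 distance to the mean of the controls, on 1 common axis, for each array (grey for the controls C1 to C3, red for M1 to M3, which got MBD2). The members and both kinds of ribosomal protein are high on C3 and low on M1, all genes stay near 0, and the mitosis genes are lowest on C3.

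Without MBD2 array 1, 5 members were called lower and 3 higher (6.76% and 4.05%), against 5.68% and 9.62% of all genes. Those lower were UQCR11, NDUFA13, COX6C, NDUFA7 and NDUFS7, and those higher were NDUFV2, ATP5MK and ATP5MC1, with log2 fold changes of 0.93, 0.77 and 0.70. Without both MBD2 array 1 and control array 3, which leaves 2 near-identical arrays in each group, 5 members were called lower and 9 higher (6.76% and 12.2%), against 10.7% and 16.7% of all genes. The members called lower were then UQCR11 (-1.11), NDUFA13 (-0.84), COX6A1 (-0.78), NDUFB9 (-0.73) and COX6C (-0.71), and NDUFS4 (1.16) and NDUFV2 (1.12) had the largest increases. With the hybridization level as a block, which compares MBD2 array 1 alone with the controls, 4 members were called lower and 0 higher (5.41% of the members lower), against 0.996% and 0.769% of all genes. These were NDUFA7 (-1.60), NDUFS7 (-1.55), NDUFS3 (-1.37) and COX6C (-1.19). That comparison has 1 MBD2 array, assumed to vary like the others, and it is the array that was lowest for most members, so its calls are no separate evidence on the groups. UQCR11, NDUFA13 and COX6C were called lower both without MBD2 array 1 and without that array and control array 3. Both settings rest on the same MBD2 arrays, 2 and 3, so they are not separate evidence. These arrays had the lowest hybridization controls, so group and hybridization level cannot be told apart there.

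Of 121 genes in 6 lists that assemble, feed or regulate the chain, 3 fell (2.48%) and 0 rose, against 1.5% and 1.25% of all genes, so the counts do not set these lists apart. Among 18 regulators of mitochondrial biogenesis, PPARGC1B, a coactivator of NRF1 and of estrogen-related receptors, had 10.39, 10.62 and 9.86 on control arrays 1, 2 and 3 and 8.41, 8.48 and 7.33 on MBD2 arrays 1, 2 and 3. Every MBD2 array lay below every control (log2 fold change -2.22, SE 0.37, limma adjusted p = 0.0416), and averaging its 4 probe sets gave -0.88 (adjusted p = 0.0551). NRF1, a transcription factor of respiratory genes, had -0.48 (SE 0.15, adjusted p = 0.172), and TFAM, which packages mitochondrial DNA, 0.45 (0.38, adjusted p = 0.588). Of 17 genes of the citric acid cycle, SUCLA2, a subunit of succinyl-CoA ligase, was called, with 12.79, 12.75 and 12.53 against 10.89, 11.27 and 10.89 (-1.67, SE 0.15, adjusted p = 0.0101). The groups of SUCLA2 did not overlap. Of 35 assembly factors of complexes II to V, COX16, which acts in building complex IV, was called (-0.64, SE 0.11, adjusted p = 0.0416). Each call was lost when the first control, the second control or MBD2 array 3 was left out, and those of PPARGC1B and COX16 also without MBD2 array 2 and that of COX16 without control array 3. The adjusted p then reached 0.177 for PPARGC1B, 0.0792 for SUCLA2 and 0.195 for COX16.

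Of 16 assembly factors of complex I, 27 genes of protein import and cristae and 8 carriers and channels of the mitochondrial membranes, 0 were called, with median log2 fold changes of -0.19, -0.11 and 0.02. At an unadjusted p under 0.05 in limma, they held 0, 2 and 1 higher and 2, 3 and 0 lower genes, in all 5.88% and 9.8% of their 51 genes, against 8.69% and 9.59% of all genes. Of the 75 mitochondrial ribosomal protein genes 1 was called lower, MRPL34 (log2 fold change -1.08), and 0 higher, and of the 59 cytosolic ones 1 was called higher, RPS27L (0.96), and 0 lower.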

How the data were processed

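The table deposited by the authors holds log2 values from RMA (background correction, quantile normalization and summary over the probes of a set). Affy and RMA are named in the processing notes of the submitters, with no version. Values ran from 2.57 to 14.74, with a median of 5.24 on every array. Of 54675 probe sets, 41091 had 1 symbol in the platform table. Those with several symbols (1801) or none (11721) and 62 control probe sets were left out. A gene was represented by its probe set of highest mean across all 6 arrays, and dim ones were not filtered out. Of the members, 43 had more than 1 probe set. In 33 of these another probe set had a mean of at least 5, and in 10 such a probe set differed over 1.5-fold from the kept one in its log2 fold change.

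The 2 groups were compared in R 4.3.3 by limma 3.58.1 (lmFit and eBayes without covariates, 1.96 prior degrees of freedom). Log2 fold changes are the mean of the MBD2 arrays less that of the controls. The fit was also run on simulated arrays that varied independently. The real arrays hold near-identical pairs, so that run does not bear on the calls made here. Precision is limited by the number of arrays. Promoter sequences and chromosomes are from RefSeq (GRCh38.p14), and 63 of 74 members had a promoter in the table.

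The members, gene lists and tests were chosen with earlier results of these data known. Named were MBD2, every member called, the 3 highest and 3 lowest log2 fold changes of each complex, isoform sets of complex IV and of the c subunit, called genes of the other lists and subunits outside the symbol rule. Members named beyond these were chosen after their values were seen (NDUFS7, NDUFV1, NDUFS3, NDUFB9, NDUFB7, NDUFA11, ATP5F1A and ATP5F1B). So were the markers PTPRC, CD14, CD3E, CD53, LYZ, DCN, COL1A1, COL1A2, COL3A1, LUM and PDGFRA, and NRF1, TFAM, MRPL34 and RPS27L. The alternatives were other choices of probe set, a level filter, centring on the mean of 22 housekeeping genes and another round of quantile normalization. Others were trend and robust fitting, an unpaired t-test, a replicate block and arrays left out or averaged. The hybridization level as a block and other thresholds were also used.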

Additional observations from a re-analysis of the deposited data

How the results depend on the processing

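The count of members called lower, 1, was 2 with the mean of all probe sets, 0 without probe sets of shared sequence, 3 with housekeeping centring, 2 after a further quantile normalization, 0 by the unpaired t-test (10 genes lower and 3 higher in all), 0 with near-identical arrays averaged (0 genes lower and 0 higher), 12 at an unadjusted p under 0.05 (1896 and 1719 genes) and 2 under the fold rule of the study's methods (687 genes higher). It was 5, with 9 higher, without control array 3 and MBD2 array 1 (2110 and 3299 genes), and 4 with the hybridization level as a block (197 and 152 genes), where the median of the members was -0.63. With 1 array left out, 0 to 5 members were lower and 0 to 3 higher, with 17 to 1123 genes lower and 2 to 1903 higher, and the members' median ran from -0.28 to -0.05. The lowest gene counts came without control array 2 and the highest without MBD2 array 1. The share of calls that were lower, 54.4%, was 37.1% without MBD2 array 1 and 89.5% without control array 2.

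Same-numbered arrays did not deviate together (correlations 0.17, -0.27 and 0.21), so the numbers were not taken as pairs. With the replicate block 0 members were called, with 51 genes lower and 12 higher, and the adjusted p was 0.0827 for UQCR11, 0.0573 for SUCLA2 and 0.0438 for MBD2.

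Of 43 members followed, 24 kept their sign in every fit run. With the hybridization level as a block the log2 fold change turned to -0.16 for ATP5F1A, -0.68 for ATP5MC1, -0.34 for ATP5MK, -0.26 for ATP5PF, -0.60 for COX7B, 0.0019 for COX7B2, 0.079 for COX8C, -0.25 for NDUFA12, -0.90 for NDUFS4, -0.81 for NDUFV2, -0.49 for UQCR10 and -0.55 for UQCRC1. Averaging near-identical arrays gave -0.024 for ATP5F1A, -0.0082 for COX7B, -0.17 for NDUFS4, -0.043 for NDUFV2, -0.21 for UQCR10 and -0.056 for UQCRC1. Without shared sequence ATP5MC2 had 0.12, NDUFB7 0.025 and SDHC 0.065, the mean of all probe sets gave -0.28 for COX7B and -0.10 for NDUFS4, and housekeeping centring -0.030 for ATP5F1A and -0.0021 for UQCR10. Without control array 3 and MBD2 array 1, ATP5MC3 had 0.18, ATP5PO 0.059, COX8A 0.13, NDUFA11 0.23 and NDUFB7 0.31. With 1 array left out, values ran from -0.0025 to 0.17 for ATP5F1A, -0.0052 to 0.70 for ATP5MC1, -0.21 to 0.13 for ATP5MC3, -0.022 to 0.69 for COX7B, -0.10 to 0.045 for COX7B2, -0.41 to 0.0064 for COX8A, -0.10 to 0.034 for COX8C, -0.25 to 0.077 for NDUFA11, -0.48 to 0.13 for NDUFB7, -0.053 to 0.87 for NDUFS4, -0.089 to 0.40 for UQCR10 and -0.098 to 0.46 for UQCRC1. The cause was not tested. Dim members, such as COX8C, are limited by signal near that of a transcript that was not added.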
